A study of Mus musculus with 18 samples.

Results

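The EGR and NR4A early transcription factors were followed as 9 genes of the deposited count table, out of 55487 genes in all: the zinc finger factors Egr1, Egr2, Egr3 and Egr4, their corepressors Nab1 and Nab2, and the nuclear receptors Nr4a1, Nr4a2 and Nr4a3. They were taken from the table by gene symbol, and all 9 were found. The RNA came from primary mouse Leydig cells, the steroid-producing cells of the testis interstitium, which had been transfected with an siRNA against Prdx1 (siprdx1) or a control siRNA (siNC). Prdx1 encodes a peroxidase that reduces H2O2. The 6 groups of 3 libraries were siprdx1+H2O2+FV, siprdx1+H2O2 and siprdx1, and the same treatments in siNC cells (siNC+H2O2+FV, siNC+H2O2 and siNC). H2O2 was given at 200 µM for 30 min, and afterwards cells received 5 µM fluvastatin (FV), a statin that inhibits HMG-CoA reductase, or 0.1% DMSO for 6 h. No DMSO is recorded for the FV groups, so the drug and the absence of vehicle cannot be told apart, and no group had FV without H2O2. The labels call the libraries biological replicates without saying that they came from separate animals, so p-values measure the spread between these libraries.

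EGR proteins are activators that bind GC-rich sites, and their genes are switched on within minutes to hours by growth factor, calcium and stress signals through serum response factor (SRF) and CREB. NAB proteins bind EGR1, EGR2 and EGR3 and repress the transcription that these factors activate, and Nab2 is itself switched on by EGR factors in several cell types. NR4A receptors act without a known natural ligand, so their activity follows their amount, and in Leydig cells NR4A1 is known for its rapid rise after luteinizing hormone and for activating promoters of steroidogenic genes.

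RefSeq promoter windows on GRCm38.p6 (250 bases before to 50 bases after a start site) were on hand for 7 of the 9 genes, and those of the 5 among them whose level differed most after FV are shown as far as they lie upstream of exons. No window was on hand for Egr1 and Egr3, so neither was searched for sites. Capitals mark CREB-type sites, the letters TGACG or CGTCA (the same site read on either strand). These letters are only a part of the full CREB site (CRE). In Egr2 capitals also mark a CArG box, the site that SRF binds. The Egr2 stretch (chr10:67537619-67537868, + strand) and the Nr4a1 (chr15:101266596-101266845, + strand) and Nr4a3 stretches (chr4:48045055-48045152, + strand) run 5′ to 3′ like the Egr4 (chr6:85513590-85513839, - strand) and Nr4a2 stretches (chr2:57124004-57124253, - strand).
Egr2: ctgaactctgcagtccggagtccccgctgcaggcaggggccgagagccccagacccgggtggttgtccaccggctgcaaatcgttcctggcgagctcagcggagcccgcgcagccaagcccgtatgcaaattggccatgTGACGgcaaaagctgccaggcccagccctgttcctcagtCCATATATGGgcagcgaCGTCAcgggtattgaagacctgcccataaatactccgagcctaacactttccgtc
Egr4: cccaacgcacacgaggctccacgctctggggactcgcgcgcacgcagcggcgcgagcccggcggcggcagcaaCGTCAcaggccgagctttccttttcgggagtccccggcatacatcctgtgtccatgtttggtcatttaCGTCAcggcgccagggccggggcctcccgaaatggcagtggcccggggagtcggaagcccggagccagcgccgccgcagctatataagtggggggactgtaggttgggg
Nr4a1: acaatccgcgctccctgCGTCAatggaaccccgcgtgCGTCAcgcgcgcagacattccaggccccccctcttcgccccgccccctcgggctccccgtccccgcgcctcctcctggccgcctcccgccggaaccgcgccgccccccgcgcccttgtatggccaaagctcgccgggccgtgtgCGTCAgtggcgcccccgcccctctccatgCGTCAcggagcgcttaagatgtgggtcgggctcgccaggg
Nr4a2: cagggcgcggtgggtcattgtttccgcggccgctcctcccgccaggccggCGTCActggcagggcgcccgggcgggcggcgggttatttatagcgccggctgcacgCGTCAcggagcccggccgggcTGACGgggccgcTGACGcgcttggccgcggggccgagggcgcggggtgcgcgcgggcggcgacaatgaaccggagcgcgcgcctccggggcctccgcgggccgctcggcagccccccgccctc
Nr4a3: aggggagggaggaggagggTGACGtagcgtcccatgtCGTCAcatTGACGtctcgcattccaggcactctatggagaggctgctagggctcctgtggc

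Searched on both strands, CREB-type sites were found in at least 1 window of 6 of the 7 genes, against 23% of 27025 genes with RefSeq windows. The full CRE was found in 0 of the 7 genes, against 2.03% of the 27025. The whole windows of Nr4a1, Nr4a2 and Nr4a3 held 4 CREB-type sites each, a number reached in 0.231% of 32851 windows. Of those of Nr4a3, 3 lie in the stretch shown. Egr4 held 2 such sites, reached in 5.01% of windows, and Nab1 held 1. Egr2 had 5 windows, and the one shown was picked because it holds both kinds of site. It and the 2 windows that overlap it hold 2 CREB-type sites with the CArG box between them, another window holds a different CArG box and no CREB-type site, and the remaining one holds neither. A CArG box was found in 1.63% of windows. EGR sites (GCGTGGGCG or GCGGGGGCG) were found 3 times in the Nab1 window and 1 time in that of Nr4a1, against 3.47% of windows. AP-1, ETS and NBRE sites were searched as well and were found in 0 of the 7 genes, against 8.97%, 4.31% and 1.7% of genes. Sp1 sites were found in 6 of the 7 (38.2% of genes) and TATA boxes in 1 (15.7%). The CArG box was found in 1 of the 7, Egr2, against 1.81% of genes. No occupancy was measured here, and these matches are a description of the letters.

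The table held 15201530 to 23898435 counts per library, and 16432 genes passed the filter on low counts. Levels are CPM, counts divided by the library total on a common scale and adjusted by TMM, the trimmed mean of M-values. Prdx1 averaged 542 ± 20.8 CPM in siprdx1+H2O2+FV, 524 ± 47.1 in siprdx1+H2O2 and 464 ± 36.1 in siprdx1 libraries, against 1504 ± 38.4, 1632 ± 67.2 and 1327 ± 42.2 CPM in the matching siNC libraries (SD, n = 3 each). Leydig markers Cyp11a1, Star and Insl3 were detected (means of 712, 286 and 50.4 CPM over all libraries), whereas Cyp17a1 and Hsd17b3, which finish testosterone synthesis, were nearly absent at 0.0318 and 0.067 CPM. Fibroblast genes such as Col3a1 (5660 CPM) and macrophage genes such as Lyz2 (5680 CPM) were abundant, so the cultures held other cells as well. Group means of the summed fibroblast markers ran from 15400 to 19500 CPM. Those of the macrophage markers ran from 7860 to 9450 CPM, and those of the Leydig markers from 1040 to 1490 CPM. In such bulk RNA, a change in the number of cells of a type and a change in RNA per cell cannot be told apart, and which cells carried the EGR and NR4A transcripts was not measured.

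Of the 9 genes, 8 passed the filter on low counts also without the FV libraries, and Egr4 passed only through them. Effects are log2 fold changes with standard errors from edgeR's quasi-likelihood test over all 18 libraries, with p-values adjusted by Benjamini-Hochberg over all 16432 genes and called at 0.05.

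After H2O2 alone, Egr1, Egr2 and Nr4a1 rose in siNC cells, whereas in siprdx1 cells the rise of Egr1 was smaller and no other member passed the test. The called members were thus 1 of 9 in siprdx1 cells, where 2.48% of all tested genes were called higher, and 3 of 9 in siNC cells, where 2.36% were. Of the 9, 0 were called lower in siprdx1 cells, where 5.39% of all tested genes were, and 0 in siNC cells, where 4.59% were. Egr1 ranked 3 by p-value among all tested genes in siprdx1 cells and 4 in siNC cells.

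Egr1 encodes the founding factor of the family and had the highest level of the 4 EGR genes per kb of exon in every group. In siprdx1 cells it had 369, 402.5 and 373 CPM after H2O2, against 117, 129 and 124 CPM without H2O2, a log2 fold change of 1.63 ± 0.06 (adjusted p = 1.15e-14). In siNC cells it had 685.5, 654 and 685.4 CPM after H2O2, against 140, 128 and 138 CPM without (2.32 ± 0.06, adjusted p = 5.62e-18). All libraries of H2O2-treated cells stood above all untreated ones, and within H2O2 every siprdx1 library stood below every siNC library.

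Egr2, a factor best known for driving myelination by Schwann cells, had 17.3, 18.9 and 19.7 CPM in siprdx1+H2O2 libraries, against 17.0, 16.1 and 15.4 CPM in siprdx1 libraries (0.21 ± 0.07, adjusted p = 0.0801). Its siNC libraries had 27.4, 24.2 and 27.5 CPM after H2O2, against 18.7, 17.4 and 18.8 CPM without (0.53 ± 0.07, adjusted p = 1.72e-05). The groups did not overlap in either arm, but only the siNC difference passed the test. Without the siprdx1+H2O2 library of replicate 1 the siprdx1 difference was 0.25 and passed as well.

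Nr4a1, the receptor also called Nur77, rose in siNC cells and gave no call in siprdx1 cells. After H2O2 it had 22.0, 26.4 and 24.4 CPM in siprdx1 cells, against 21.2, 23.9 and 22.2 CPM without H2O2 (0.11 ± 0.08, adjusted p = 0.446). Its siNC libraries had 46.1, 43.2 and 47.6 CPM after H2O2, against 21.6, 19.9 and 22.0 CPM without (1.11 ± 0.08, adjusted p = 6.96e-10). The siNC libraries separated completely by treatment, whereas the siprdx1 libraries overlapped.

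The other members gave no call with H2O2. Egr3, a factor needed for muscle spindles, averaged 1.79 ± 0.0383 CPM in siprdx1+H2O2 and 2.44 ± 0.11 CPM in siprdx1 libraries, and 1.98 ± 0.352 CPM in siNC+H2O2 and 2.26 ± 0.48 CPM in siNC libraries (SD, n = 3 each). Its log2 differences were -0.44 ± 0.15 and -0.18 ± 0.15 (adjusted p = 0.11 and 0.604), and its siprdx1 groups did not overlap. Nab1 and Nab2 lay between -0.07 and 0.18, and Nr4a2 and Nr4a3, the receptors also called Nurr1 and Nor1, lay between -0.18 and 0.37 in both arms with standard errors of 0.21 to 0.30 at 0.90 to 2.6 CPM. Egr4 gave 4 counts over the 3 siprdx1+H2O2 libraries and 3 over the siprdx1 libraries, a ratio per scaled library size of 1.14 (exact 95% interval 0.194 to 7.82). In siNC cells it gave 10 counts after H2O2 and 1 without, a ratio of 11.4 (1.63 to 497). These intervals cover counting error only.

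**Figure D1:**
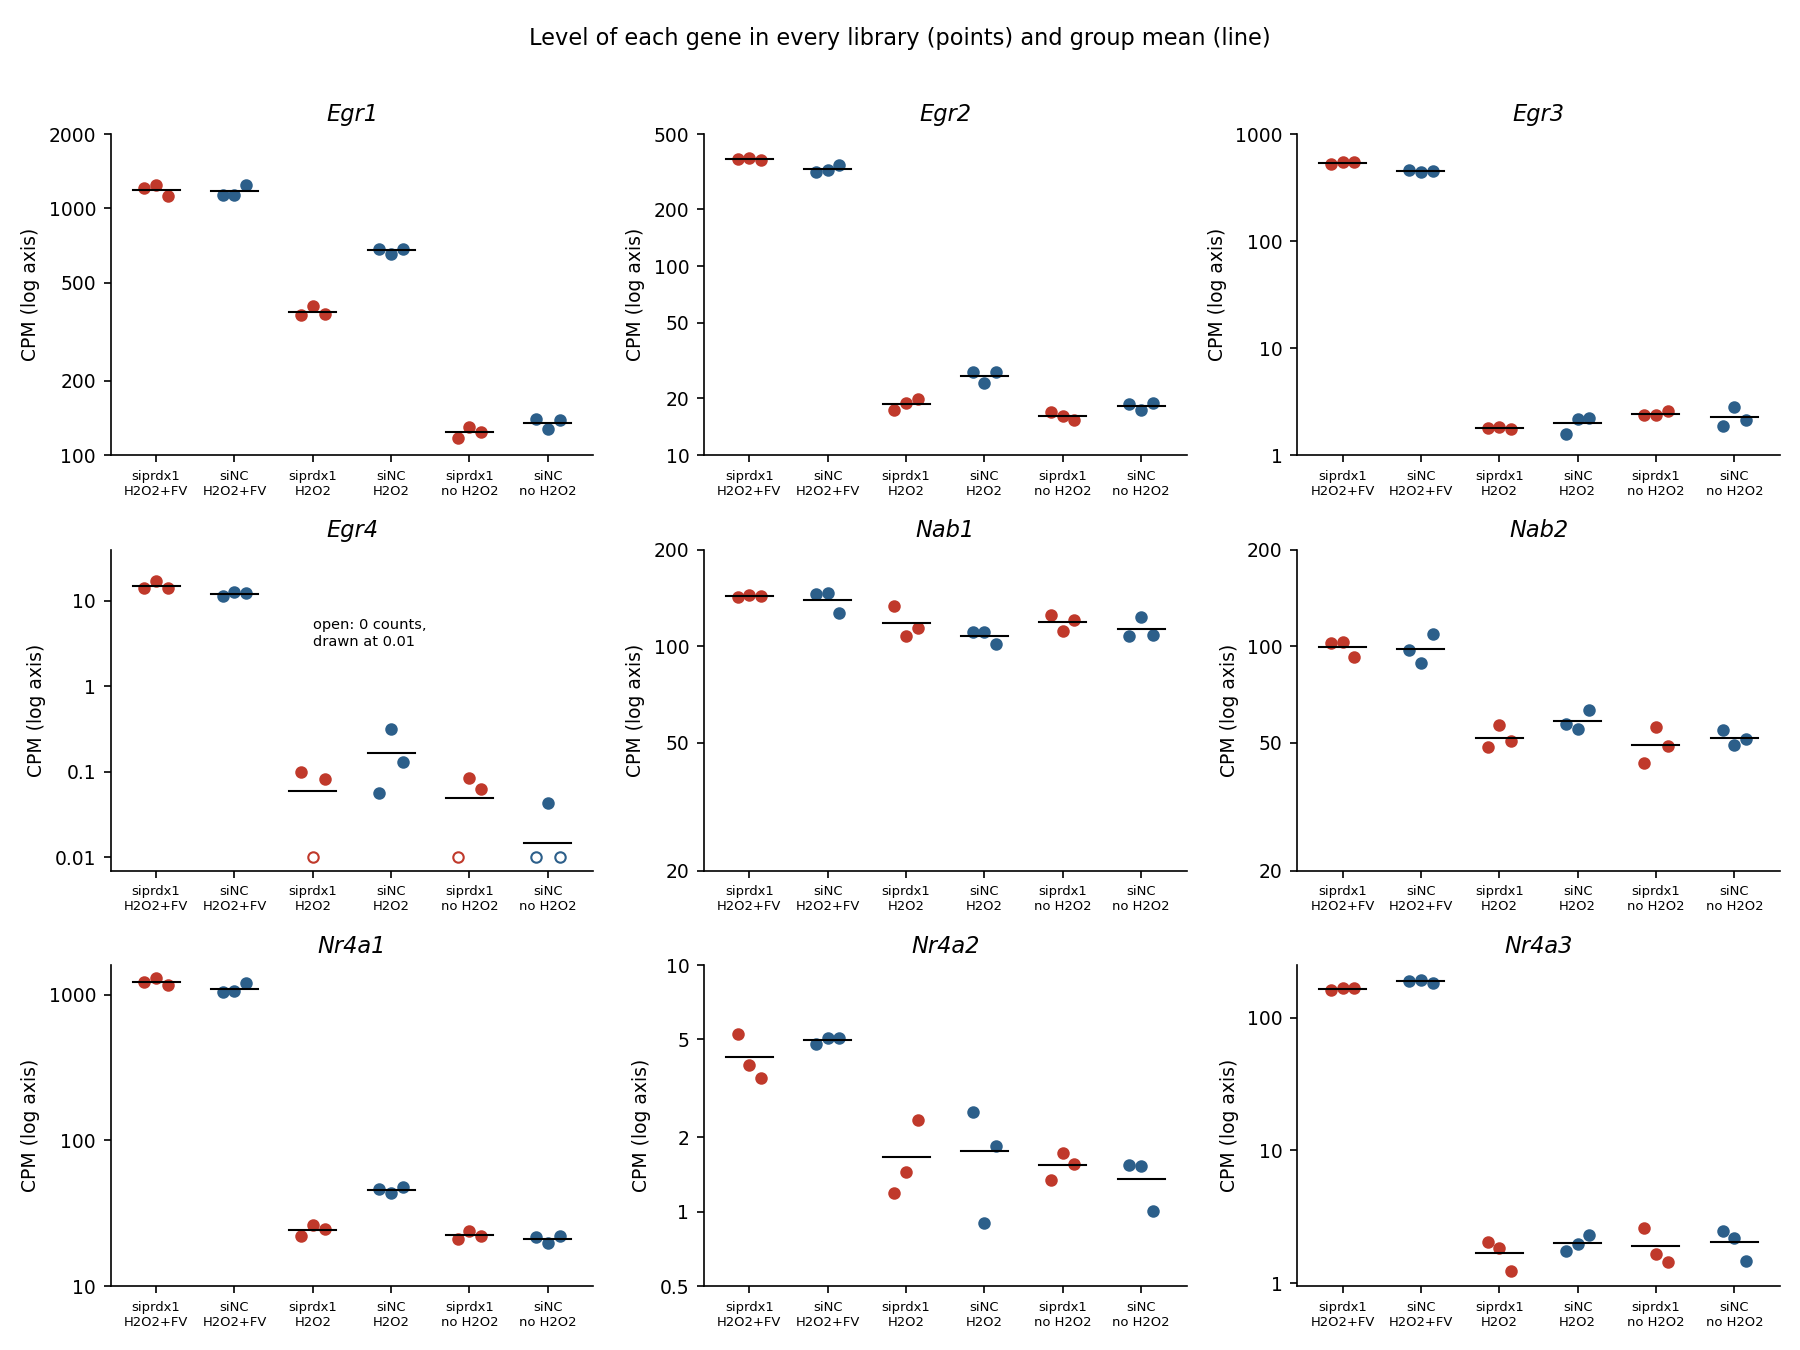
CPM of each of the 9 genes in every library on a log axis, with the 3 libraries of a group as points and the group mean as a line. siprdx1 (red) is drawn left of siNC (blue) in each treatment, and open points mark libraries with 0 counts of Egr4. The means of all 9 genes are highest after H2O2 and FV, and those of Egr1, Egr2 and Nr4a1 stand lower in siprdx1+H2O2 than in siNC+H2O2.

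After FV, all 9 genes were higher than after H2O2 alone in both arms. The 8 genes other than Egr4 were called higher in siprdx1 cells, where 12.6% of all tested genes were, and in siNC cells, where 13.5% were. The range ran from Egr3, first of all 16432 genes by p-value and by log2 fold change in both arms, to Nab1, at ranks 2482 by p-value in siprdx1 and 1451 in siNC cells. The FV and H2O2 comparisons share the H2O2 libraries, so their sizes stand side by side here without being related to each other.

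Egr3 had 525, 543 and 544 CPM in siprdx1+H2O2+FV libraries, against 1.80, 1.83 and 1.75 CPM in siprdx1+H2O2 libraries (8.22 ± 0.09, adjusted p = 1.69e-25). Its siNC libraries had 458, 440 and 448 CPM with FV, against 1.57, 2.17 and 2.20 CPM after H2O2 (7.80 ± 0.09, adjusted p = 5.19e-25). The 3 libraries of each FV group lay close together, and Egr3 made up 24.3 ± 0.975% of the summed EGR level per kb in siprdx1 and 21.9 ± 0.955% in siNC cells with FV (SD, n = 3 each).

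Egr2 had 370, 372 and 362 CPM with FV in siprdx1 cells, against 17.3, 18.9 and 19.7 CPM after H2O2 (4.30 ± 0.07, adjusted p = 5.98e-23). Its siNC libraries had 315, 323 and 342 CPM with FV, against 27.4, 24.2 and 27.5 CPM after H2O2 (3.63 ± 0.06, adjusted p = 7.94e-22). Egr1 had 1209, 1245 and 1118 CPM with FV in siprdx1 cells, against 369, 402.5 and 373 CPM after H2O2 (1.64 ± 0.06, adjusted p = 3.88e-16). For both genes every FV library stood above every library without FV.
Egr1 in siNC cells had 1136, 1131 and 1247 CPM with FV, against 685.5, 654 and 685.4 CPM after H2O2, the smallest FV response among the EGR genes (0.80 ± 0.06, adjusted p = 2.13e-10). Egr4, the EGR factor that lacks the NAB binding region, gave 314, 371 and 227 counts in siprdx1+H2O2+FV libraries, against 2, 0 and 2 counts in siprdx1+H2O2 libraries, a ratio per scaled library size of 261 (exact 95% interval 101 to 959). In siNC cells it gave 206, 256 and 269 counts with FV, against 1, 6 and 3 counts after H2O2, a ratio of 73 (39.5 to 153). Outside the FV libraries no library held more than 6 counts of Egr4.

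Both corepressors rose. Nab2 had 103, 103 and 92.5 CPM with FV in siprdx1 cells, against 48.5, 56.7 and 50.6 CPM after H2O2 (0.94 ± 0.09, adjusted p = 1.84e-08), and in siNC cells 97.4, 88.7 and 109 CPM, against 57.4, 55.2 and 63.1 CPM (0.75 ± 0.09, adjusted p = 7.58e-07). Its groups did not overlap, but 3 genes lie on its opposite strand with shared exon sequence: Stat6 (40 bases), Nemp1 (151 bases) and the antisense gene Gm16229 (1050 bases). Whether HTSeq read the strand is not given in the sources used here, so the Nab2 counts are uncertain by that share, and none of the 3 was called higher after FV. Nab1 had 142, 145 and 143 CPM with FV in siprdx1 cells, against 133, 107 and 114 CPM after H2O2 (0.28 ± 0.07, adjusted p = 0.00769). Its siNC libraries had 145, 147 and 127 CPM, against 111, 111 and 102 CPM (0.37 ± 0.08, adjusted p = 0.000694). The groups did not overlap, but without the siprdx1+H2O2 library of replicate 2 the siprdx1 value was 0.22 with adjusted p = 0.0519, and with library size alone as scaling it was 0.18 with adjusted p = 0.0801. Nab1 also shares near-identical sequence with Cog7 (97.4% over 382 bases) and Gm13361 (93% over 327 bases). At lower identity, the same search matched Egr3 with Egr2 (81.35% over 311 bases) and with Egr4 (83% over 224 bases).

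Among the receptors, Nr4a1 had 1219, 1294 and 1161 CPM with FV in siprdx1 cells, against 22.0, 26.4 and 24.4 CPM after H2O2 (5.65 ± 0.08, adjusted p = 1.46e-23). Its siNC libraries had 1039, 1060 and 1192 CPM, against 46.1, 43.2 and 47.6 CPM (4.59 ± 0.08, adjusted p = 2.35e-22). Nr4a3 had 162, 166 and 168.5 CPM with FV in siprdx1 cells, against 2.05, 1.83 and 1.22 CPM after H2O2 (6.62 ± 0.13, adjusted p = 4.74e-21). Both genes separated completely by treatment.
Nr4a3 in siNC cells had 191, 194 and 183 CPM with FV, against 1.74, 1.96 and 2.29 CPM after H2O2 (6.55 ± 0.13, adjusted p = 6.32e-21). Nr4a2 stayed scarce at 5.27, 3.95 and 3.49 CPM with FV in siprdx1 cells, against 1.20, 1.45 and 2.36 CPM after H2O2 (1.33 ± 0.26, adjusted p = 0.000513). In siNC cells it had 4.76, 5.07 and 5.05 CPM, against 2.53, 0.899 and 1.86 CPM (a 2.82-fold difference, adjusted p = 0.000162). Its groups did not overlap either, and the lowest FV library of each arm stood above the highest H2O2 library of that arm.

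**Figure D2:**
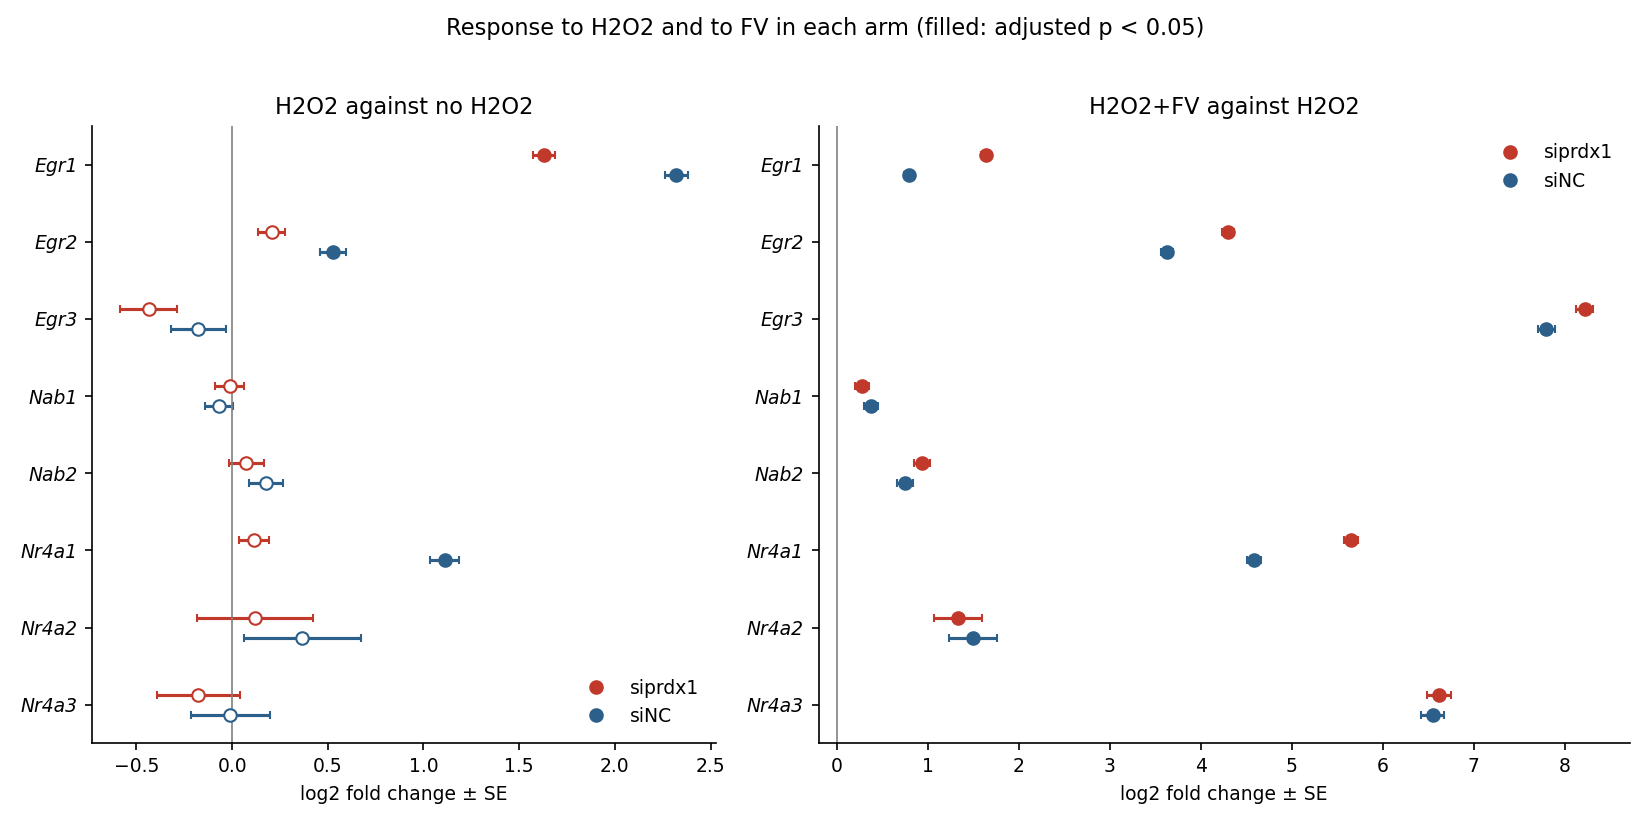
Log2 fold change with SE (x axis) of the 8 genes that passed the filter without the FV libraries, for H2O2 against no H2O2 (left) and H2O2+FV against H2O2 (right), with siprdx1 above siNC. Filled points passed the test at 0.05. Nr4a1 sits at 0.11 in siprdx1 and 1.11 in siNC cells after H2O2, and the FV responses run from 0.28 (Nab1) to 8.22 (Egr3).

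Against cells without H2O2, the 8 genes other than Egr4 were called higher in H2O2+FV libraries, in siprdx1 cells (12.7% of all tested genes) and in siNC cells (11.3%). The log2 fold changes in siprdx1 and in siNC cells were 3.27 and 3.11 for Egr1, 4.51 and 4.16 for Egr2, 7.79 and 7.63 for Egr3, and 0.27 and 0.30 for Nab1. They were 1.01 and 0.92 for Nab2, 5.77 and 5.70 for Nr4a1, 1.45 and 1.86 for Nr4a2, and 6.44 and 6.54 for Nr4a3. These comparisons share libraries with those above. The Nab1 call in siprdx1 cells was lost without the siprdx1 library of replicate 2 (0.22, adjusted p = 0.057), and with library size alone as scaling it was lost in siprdx1 cells at 0.13 and in siNC cells at 0.18. For Egr4, 912 counts in siprdx1+H2O2+FV libraries stood against 3 in siprdx1 libraries, a ratio of 299 (exact 95% interval 102 to 1450), and 731 in siNC+H2O2+FV libraries stood against 1 in siNC libraries, a ratio of 836 (150 to 33100).

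Prdx1 knockdown lowered Egr1, Egr2 and Nr4a1 after H2O2, and no member was called in cells without H2O2. Without H2O2, 0 of 9 genes were called by edgeR, against 2.33% of all tested genes in either direction. By limma voom and by DESeq2 0 were called, and 2 had an unadjusted p under 0.05 in edgeR. These were Egr1 and Egr2, and the Egr2 groups did not overlap, at 16.15 CPM in siprdx1 and 18.29 CPM in siNC libraries (-0.18 ± 0.07, adjusted p = 0.306). After H2O2, 3 of 9 were called lower, against 1.83% of all tested genes. Egr1 averaged 381 ± 18.45 CPM in siprdx1+H2O2 and 675 ± 18.1 CPM in siNC+H2O2 libraries (-0.82 ± 0.06, adjusted p = 2.69e-09), Egr2 averaged 18.6 ± 1.22 and 26.4 ± 1.91 CPM (-0.50 ± 0.07, adjusted p = 9.31e-05), and Nr4a1 averaged 24.3 ± 2.22 and 45.6 ± 2.24 CPM (-0.91 ± 0.07, adjusted p = 4.03e-08; SD, n = 3 each). Egr1 ranked 8 and Nr4a1 ranked 13 by p-value in this comparison, and the groups of none of the 3 genes overlapped. Egr4 gave 4 counts in siprdx1+H2O2 and 10 in siNC+H2O2 libraries, a ratio of 0.349 (exact 95% interval 0.0799 to 1.21).

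With FV, 1 member was called. Egr3 was higher in siprdx1 cells, at 537 ± 10.8 CPM against 449 ± 8.76 CPM in siNC cells (SD, n = 3 each; 0.26 ± 0.06, adjusted p = 0.00772), the only member among 9 called higher where 1.62% of all tested genes were. Without the siNC+H2O2+FV library of replicate 2 the value was 0.25 with adjusted p = 0.0579. Egr1 differed by 0.02 ± 0.06 and Nr4a1 by 0.16 ± 0.06 (adjusted p = 0.889 and 0.193). Egr2, at 368 ± 5.17 CPM against 327 ± 14.05 CPM, and Nr4a3, at 166 ± 3.27 CPM against 189 ± 5.35 CPM, did not overlap between the arms, but their differences of 0.17 ± 0.05 and -0.19 ± 0.08 missed the threshold (adjusted p = 0.0873 and 0.227). Egr4 gave 912 counts in siprdx1 and 731 counts in siNC libraries, a ratio per scaled library size of 1.25 (exact 95% interval 1.13 to 1.37, counting error only).

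**Figure D3:**
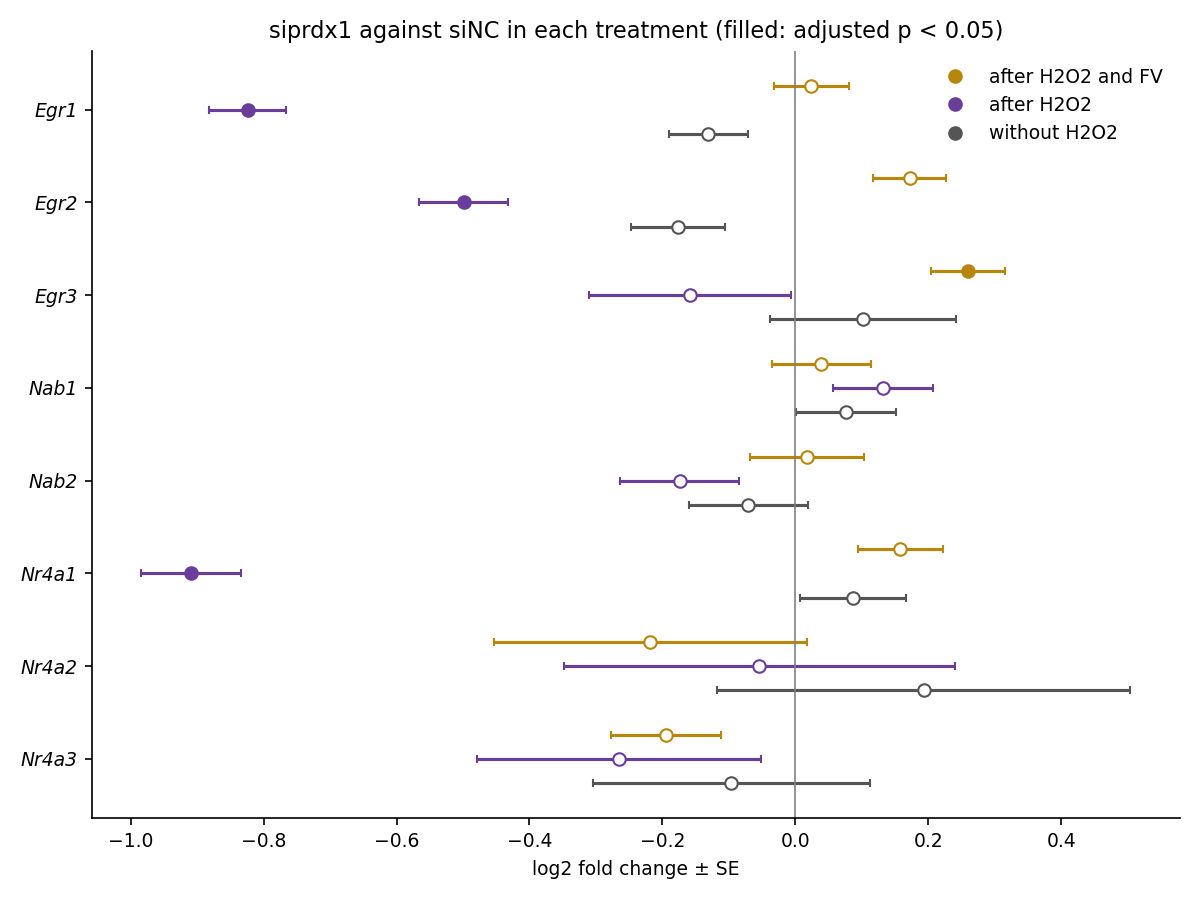
Log2 fold change with SE (x axis) of siprdx1 against siNC in each of the 3 treatments for the 8 genes that passed the filter without the FV libraries; filled points passed the test at 0.05. Egr1, Egr2 and Nr4a1 lie at -0.82, -0.50 and -0.91 after H2O2, and only Egr3 is filled after H2O2 and FV, at 0.26.

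Whether the response itself differed between the arms was tested as an interaction. Cells were sampled at a single time, 6 h after the H2O2 step, so a smaller or larger response means a difference at that time. The time course was not measured. The H2O2 response was smaller in siprdx1 cells for Egr1 (-0.69 ± 0.08, adjusted p = 4.81e-05) and Nr4a1 (-0.996 ± 0.11, adjusted p = 1.83e-05), 2 of 9 members where 0.201% of all tested genes were called lower. The FV response was larger in siprdx1 cells for Egr1 (0.85 ± 0.08, adjusted p = 7.57e-07), Egr2 (0.67 ± 0.09, adjusted p = 9.46e-05) and Nr4a1 (1.07 ± 0.10, adjusted p = 4.96e-07), 3 of 9 where 0.463% were called higher. Both interactions and the knockdown comparison after H2O2 use the same H2O2 libraries, so a low level in siprdx1+H2O2 enters all of them. Egr2 had an H2O2 interaction of -0.32 ± 0.10 (adjusted p = 0.332), and Egr3 and Nr4a3 had FV interactions of 0.42 ± 0.16 and 0.07 ± 0.23 (adjusted p = 0.306 and 0.937). Averaged over treatments, 3 of 9 members were called lower with knockdown by edgeR, where 5.46% of all tested genes were lower: Egr1 with -0.31 ± 0.03, Egr2 with -0.17 ± 0.04 and Nr4a1 with -0.22 ± 0.04 (adjusted p = 8.61e-07, 0.00463 and 0.00105). These averages rest mainly on the H2O2 libraries. Without H2O2, after H2O2, and after H2O2 and FV, the differences were -0.13, -0.82 and 0.02 for Egr1. They were -0.18, -0.50 and 0.17 for Egr2, and 0.09, -0.91 and 0.16 for Nr4a1. A 2-sided exact permutation of the knockdown labels within treatments (9 libraries in each arm, 9 genes tested, smallest possible p 0.00025) gave p = 0.0135 for Egr1, 0.0578 for Egr2 and 0.102 for Nr4a1, and 0.1 to 0.976 for the others, without adjustment over the 9 genes. The 0.976 was that of Egr4, which passed the filter only through the FV libraries.

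Cell type markers were read in the same comparisons. After H2O2, 2.48% of all tested genes were called higher and 5.39% lower in siprdx1 cells. In siNC cells 2.36% were called higher and 4.59% lower. The 12 macrophage markers summed to 8050 to 8340 CPM in siprdx1+H2O2 and 7730 to 8020 CPM in siprdx1 libraries. They summed to 9180 to 9870 CPM in siNC+H2O2 and 7960 to 8850 CPM in siNC libraries. Of the 12, 0 were called after H2O2 in siprdx1 cells, and 2 were called higher in siNC cells, Cd14 (0.46 ± 0.06, adjusted p = 3.11e-05) and Lyz2 (0.21 ± 0.05, adjusted p = 0.0184). The Lyz2 call was lost without siNC+H2O2 replicate 1, siNC replicate 2 or siNC replicate 3 (0.167 to 0.186). With FV, 2 of 12 rose in siprdx1 cells, and 1 rose and 5 fell in siNC cells. Among all tested genes, 12.6% were called higher with FV and 11% lower in siprdx1 cells. In siNC cells 13.5% were called higher with FV and 11.3% lower. After H2O2, knockdown lowered 1 of 12, Lyz2, where 1.83% of all tested genes were called lower and 0.901% higher. In that comparison it also lowered 2 of 7 tested Leydig markers, Cyp11a1 (-0.28 ± 0.04, adjusted p = 0.000593) and Star (-0.19 ± 0.05, adjusted p = 0.0436), and 1 of 7 smooth muscle markers. It raised 2 of 6 tested Sertoli markers, Cldn11 and Wt1, and raised 2 and lowered 2 of 8 fibroblast markers, and 0 of 6 tested endothelial markers were called. The part of these markers in the Egr1, Egr2 and Nr4a1 results was not tested. With FV, 6 of 7 smooth muscle markers rose in each arm, to sums of 2550 to 2800 CPM in siprdx1+H2O2+FV libraries, against 1430 to 1600 CPM in siprdx1+H2O2, and of 2910 to 3110 CPM in siNC+H2O2+FV, against 1680 to 1780 CPM in siNC+H2O2. Of 8 fibroblast markers, 4 rose after H2O2 in siprdx1 cells and 0 were called in siNC cells. The part of these markers in the results was not tested.

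The make-up of each family also shifted. Per kb of exon, the EGR genes summed to 503 ± 16.3 CPM in siprdx1+H2O2+FV, 91.0 ± 4.21 in siprdx1+H2O2 and 32.9 ± 1.29 in siprdx1 libraries, and to 465 ± 18.5, 159 ± 4.5 and 36.1 ± 1.63 CPM per kb in the matching siNC libraries (SD, n = 3 each). Egr1 made up 93.5 ± 0.409% of the sum in siprdx1+H2O2 and 94.8 ± 0.157% in siNC+H2O2 libraries, but 52.8 ± 1.27% and 56.2 ± 0.883% once FV had been given. Egr2 then held 21.5 ± 0.411% in siprdx1 and 20.7 ± 0.324% in siNC cells, close to the Egr3 shares. Egr4 held 1.4 ± 0.117% in siprdx1 and 1.22 ± 0.0659% in siNC cells.

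Nr4a1 was the main NR4A transcript in every group. The NR4A sum came to 378 ± 18.8 CPM per kb in siprdx1+H2O2+FV, 7.61 ± 0.657 in siprdx1+H2O2 and 7.09 ± 0.377 in siprdx1 libraries, and to 345.5 ± 22.8, 13.8 ± 0.811 and 6.71 ± 0.28 in the matching siNC libraries (SD, n = 3 each). Nr4a1 made up 89.9 to 94.5% of it in the 6 groups. Nr4a3 held 7.34 ± 0.434% in siprdx1 and 9.19 ± 0.817% in siNC cells with FV, and Nr4a2 held 0.276 ± 0.0603% and 0.354 ± 0.0188%. The NAB sum was 68.8 ± 2.19 CPM per kb in siprdx1+H2O2+FV and 46.5 ± 2.17 in siprdx1+H2O2 libraries, and 67.4 ± 1.31 and 46.2 ± 0.411 in the matching siNC libraries.

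**Figure D4:**
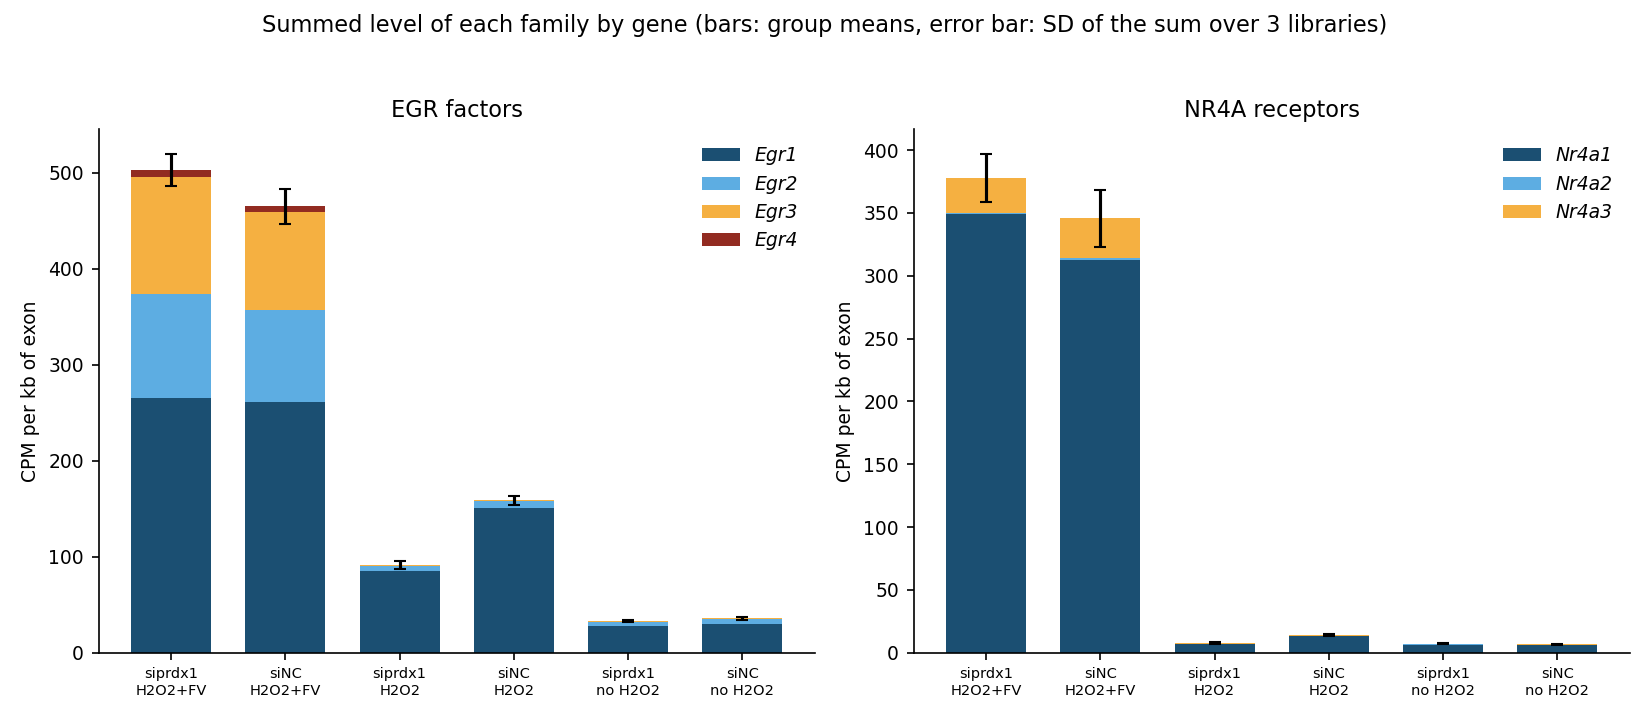
Summed level per kb of exon (CPM per kb, y axis from 0) of the 4 EGR genes (left) and the 3 NR4A genes (right) in each group, stacked by gene, with the SD of the sum over 3 libraries as error bars. Egr1 fills 83.6 to 94.8% of the EGR bars without FV and 52.8 to 56.2% with FV, whereas Nr4a1 fills 89.9 to 94.5% of every NR4A bar.

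Over the 18 libraries, which share the treatment contrast and the scaling, the members followed a common pattern in log2 CPM: Pearson's r was 0.998 for Egr2 with Nr4a1, 0.996 for Egr3 with Nr4a3 and 0.990 for Egr2 with Egr3, and 0.757 for Egr1 with Egr3. Outside the 9 genes, the most similar of all tested genes were Btg2, Arc and Dusp1 for Egr1 (0.992 to 0.994), Maff, Dusp10 and Enc1 for Egr2 (0.997 each), and Hk2, Errfi1 and Itga5 for Egr3 (0.998 to 0.999). For Nr4a1 they were Csrnp1, Plk3 and Maff (0.995 to 0.998), for Nr4a3 Errfi1, Ereg and Gcnt2 (0.995 to 0.996), and for Egr4 Lif, Ifrd1 and Trim62 (0.990 to 0.993). Egr4 had almost no counts outside the FV libraries, so its correlations mainly reflect the step to FV. Nab2 was close to Ehd1 (0.994) and Midn (0.991). Nab1 was closest to Picalm, Ncoa7 and Dipk2a (0.959 to 0.963), and Nr4a2 to 1700016P03Rik, Necab2 and Amigo3 (0.930 to 0.938).

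Within groups the pairs were different. When each gene's group means were removed, the deviations of Egr1 and Nr4a1 ran together over the 18 libraries (r = 0.91), as did those of Egr1 and Nab2 (0.89), whereas Nab1 ran opposite to Nr4a1 (-0.88). Egr3 and Nr4a3, which matched at 0.996 over all libraries, gave 0.12 within groups. These deviations moved with the base composition of the libraries: a GC index, the correlation across 16410 genes of a library's deviation with transcript GC content, ran from -0.38 to 0.39 (both in the siprdx1+H2O2 group, replicates 1 and 2). The deviation of Nr4a1 correlated with that index at 0.98, Egr1 at 0.89, Nab2 at 0.86, Egr2 at 0.58 and Nab1 at -0.90, and the remaining members at -0.23 to 0.25. Transcript GC was 57.0% for Nr4a1, 57.3% for Egr1, 60.1% for Nab2 and 47.2% for Nab1, against a median of 49.5% over tested genes, but it was 68.2% for Egr4. For Egr1, Nr4a1, Nab1 and Nab2 the deviations reached at most 0.19 on the log2 scale. With GC content and transcript length as offsets, an alternative chosen after seeing the data, the H2O2 interactions were -0.70 for Egr1 and -0.97 for Nr4a1, and the FV interactions were 0.79 for Egr1, 0.615 for Egr2 and 0.94 for Nr4a1, all past the threshold.

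**Figure D5:**
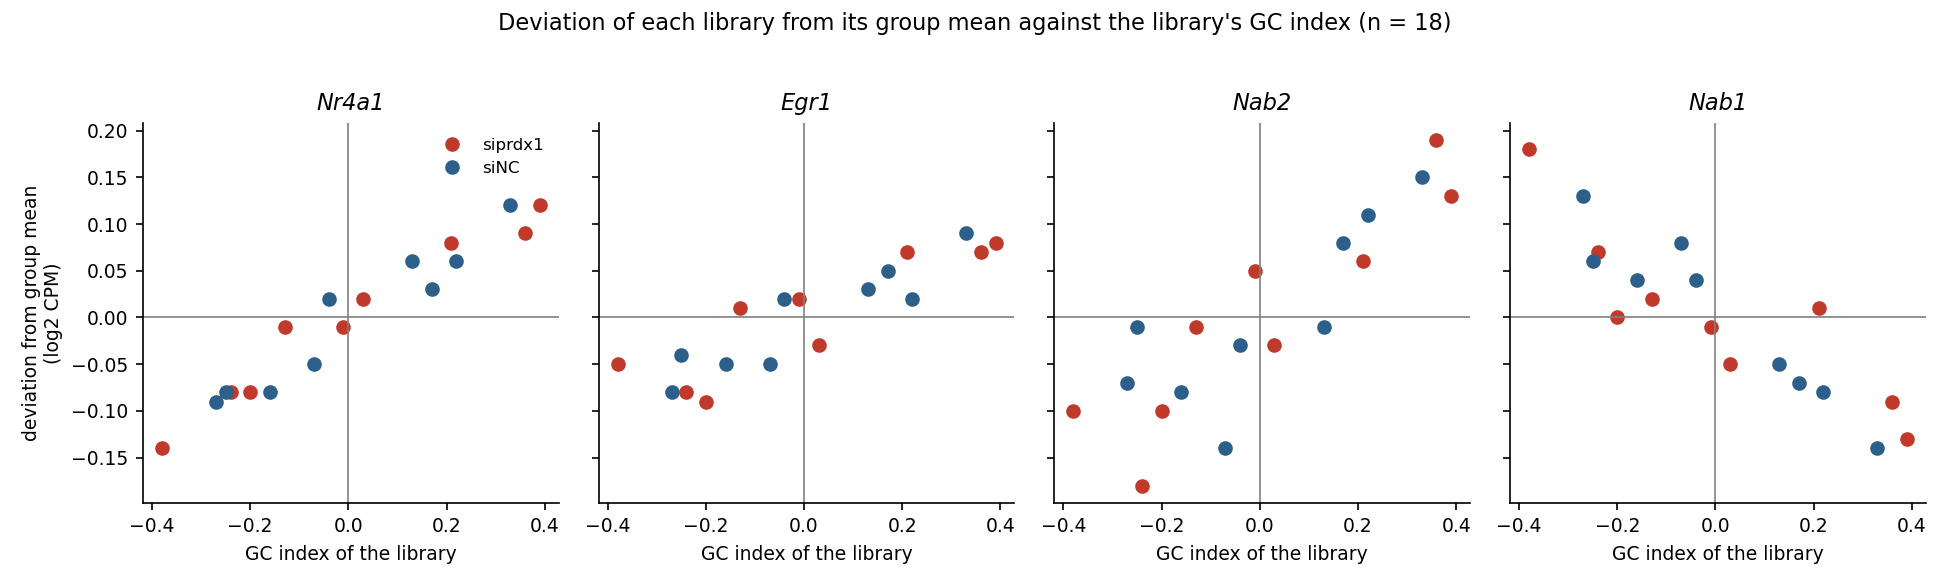
Deviation of each library from its group mean in log2 CPM (y axis) against the GC index of the library (x axis, a correlation with no unit) for Nr4a1, Egr1, Nab2 and Nab1, with siprdx1 libraries in red and siNC libraries in blue (n = 18). Nr4a1, Egr1 and Nab2 climb with the index (r = 0.98, 0.89 and 0.86) and Nab1 descends (-0.90).

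In the GENCODE vM21 annotation of GRCm38, the build called mm10 in the submitters' processing notes, the EGR genes are Egr1 on chromosome 18 from 34859823 to 34864984 (+ strand), Egr2 on chromosome 10 from 67535475 to 67542188 (+ strand), Egr3 on chromosome 14 from 70077203 to 70082614 (+ strand) and Egr4 on chromosome 6 from 85511121 to 85513589 (- strand). The corepressor genes are Nab1 on chromosome 1 from 52457294 to 52500679 (- strand) and Nab2 on chromosome 10 from 127660918 to 127668568 (- strand). The receptor genes are Nr4a1 on chromosome 15 from 101254269 to 101274795 (+ strand), Nr4a2 on chromosome 2 from 57106830 to 57124003 (- strand) and Nr4a3 on chromosome 4 from 48045153 to 48086447 (+ strand). Egr2 and Nab2 share a chromosome and no other pair of members does. Values of neighbouring genes that follow are for H2O2+FV against H2O2. Of the nearest tested protein-coding neighbours, Etf1, 37801 bases from Egr1 and encoding a translation release factor, rose by 0.69 ± 0.08 in siprdx1 and 0.84 ± 0.08 in siNC cells (adjusted p = 2.16e-07 and 1.08e-08). Ado, which lies 2323 bases from Egr2, had -0.25 ± 0.06 in siprdx1 and -0.19 ± 0.06 in siNC cells (adjusted p = 0.00366 and 0.0271), and the siNC call was lost in 7 alternatives, among them each fit without 1 siNC+H2O2 library and without siNC+H2O2+FV replicate 1 or 3 (-0.201 to -0.157). Alms1, beside Egr4, was called in siNC cells (0.34, adjusted p = 0.043) and not in siprdx1 cells (-0.13, adjusted p = 0.49), and the interaction of FV with knockdown was -0.47 ± 0.17 (adjusted p = 0.24). The neighbours of Egr3 (Bin3), Nr4a1 (Grasp, Atg101) and Nr4a3 (Sec61b, Stx17) were not called in either arm, with values between -0.24 and 0.13.

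Genes around the members in the pathway were read from lists. Of 24 upstream factors, 4 rose and 4 fell with FV in siprdx1 cells and 5 rose and 4 fell in siNC cells (median 0.00 and 0.05, against -0.006 and -0.011 over all tested genes). Over all tested genes, 12.6% were called higher and 11% lower in siprdx1 cells, and 13.5% higher and 11.3% lower in siNC cells. Srf, whose protein binds the CArG box, averaged 218 ± 14.8 CPM with FV in siprdx1 and 170 ± 17.8 CPM in siNC cells, against 49.7 ± 4.11 and 46.1 ± 3.53 CPM after H2O2 (2.13 ± 0.09 and 1.88 ± 0.09, adjusted p = 1.48e-14 and 2.27e-13). Its ETS partner Elk4 rose by 0.62 ± 0.07 and 0.49 ± 0.07 (adjusted p = 1.54e-07 and 6.59e-06).

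Of 25 genes listed as EGR targets, 22 were tested. With FV 13 rose and 2 fell in siprdx1 cells (median 0.48), where 12.6% of all tested genes were called higher and 11% lower. In siNC cells 13 rose and 1 fell (median 0.27), where 13.5% were called higher and 11.3% lower. F3, which starts blood clotting, rose by 3.36 ± 0.05 in siprdx1 and 3.29 ± 0.05 in siNC cells (adjusted p = 6.89e-23 and 1.9e-22). Many of these targets also have other known regulators. With H2O2, 2 of 22 rose and 0 fell in siprdx1 cells, where 2.48% of all tested genes were called higher and 5.39% lower. In siNC cells 3 rose and 1 fell, where 2.36% were called higher and 4.59% lower. The inflammatory cytokine gene Tnf rose by 0.72 ± 0.08 in siprdx1 and 0.85 ± 0.08 in siNC cells (adjusted p = 3.34e-06 and 3.48e-07), and the stress cytokine gene Gdf15 by 0.53 ± 0.13 and 0.999 ± 0.13 (adjusted p = 0.0173 and 2.86e-05). The siprdx1 call of Gdf15 was lost without siprdx1+H2O2 replicate 2, siprdx1 replicate 1 or siprdx1 replicate 3 (0.417 to 0.5). F3 fell in siNC cells after H2O2 (-0.23 ± 0.05, adjusted p = 0.00546). After H2O2, knockdown lowered 4 and raised 1 of the 22, where 1.83% of all tested genes were called lower and 0.901% higher, and Gdf15 was among those lowered (-0.70 ± 0.13, adjusted p = 0.00255).

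Of 13 genes listed as NR4A targets in steroidogenic cells, 9 were tested. With FV, 3 rose and 0 fell in siprdx1 cells (median 0.11), where 12.6% of all tested genes were called higher and 11% lower. In siNC cells 2 rose and 2 fell (median 0.04), where 13.5% were called higher and 11.3% lower. The 2 that fell were Hsd3b6 and Hsd3b1. With H2O2 alone 0 were called by edgeR in either arm. Over all tested genes, H2O2 gave 2.48% higher and 5.39% lower in siprdx1 cells, and 2.36% higher and 4.59% lower in siNC cells. With FV, Star, which carries cholesterol into mitochondria, rose by 1.40 ± 0.05 in siprdx1 and 1.34 ± 0.05 in siNC cells (adjusted p = 8.41e-16 and 2.26e-15), and the activin subunit gene Inhba by 0.93 ± 0.11 and 1.03 ± 0.11 (adjusted p = 1.03e-06 and 2.97e-07). Of 12 tested partner and opposing receptors and cofactors, 0 rose and 4 fell with FV in siprdx1 cells, and 4 rose and 4 fell in siNC cells. The shares over all tested genes are those given above for FV. Nr2f2, encoding COUP-TFII, had -1.56 ± 0.07 with FV in siprdx1 and -1.31 ± 0.07 in siNC cells (adjusted p = 6.78e-14 and 2.17e-12), and Nr5a1, encoding the steroidogenic factor SF-1, had -0.43 ± 0.07 and -0.36 ± 0.07 (adjusted p = 0.000122 and 0.000855). Per kb of exon, Nr4a1 stood at 349 ± 18.9 CPM in siprdx1+H2O2+FV and 313 ± 23.6 CPM in siNC+H2O2+FV libraries. Nr5a1 stood at 16.6 ± 1.23 and 17.1 ± 0.302 CPM per kb in the same groups (SD, n = 3 each). Which cells carried these transcripts was not measured. A link between the rise of the NR4A genes and the fall of Nr2f2 and Nr5a1 was not tested.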

How the data were processed

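The deposited table held raw counts per gene, which the authors made from polyA RNA (TruSeq Stranded mRNA libraries sequenced as paired ends on a NovaSeq), per the labels' protocols. HISAT2, HTSeq and mm10 are named in the submitters' processing notes, and versions, annotation and the strand setting of the counting are not given in the sources used here. Counts were fitted with edgeR 4.0.16 in R 4.3.3 (TMM scaling, filterByExpr with a minimum count of 10, robust quasi-likelihood, 6 group means, 12 residual degrees of freedom), and 12 contrasts were tested with Benjamini-Hochberg adjustment over 16432 genes at 0.05. The common biological coefficient of variation was 7.01%, and library totals of 15201530 to 23898435 counts set the precision. Levels per kb divide CPM by the exon length in GENCODE vM21, which held 55227 of the 55487 gene IDs. Within-group correlations and similar genes use log2 CPM with a prior count of 2. Exact intervals (95%) for Egr4 cover counting error only. Near-identical sequence was searched with blastn 2.17.0+ (at least 80% over 100 bases). The steps were tested on simulated data.

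No pair of replicates agreed within sampling noise (chi-square per degree of freedom of 2.64 to 16.1). The 16.1 was that of siprdx1+H2O2 replicates 1 and 2, and this group enters the knockdown comparison after H2O2 and both interactions. The groups share replicate numbers 1 to 3, and the deviations of same-numbered libraries correlated above 0.1 in every pair only between siNC+H2O2 and siNC (0.118 to 0.135), a pairing that comes from the data and not from the labels. The members and the gene lists were chosen with earlier results of these data known. Named genes were the 9 members, for each the 3 genes most correlated with it, its neighbours and overlapping genes, and list members among the most strongly called. A few genes that this rule names are not reported here. Alternatives were RLE scaling, library size alone, no filter, a replicate block, only the groups compared, limma voom 3.58.1, DESeq2 1.42.0 and each library left out. GC and length offsets, with and without the block, were added after seeing the data.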

Additional observations from a re-analysis of the deposited data

Results flagged for a closer look

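The response to a treatment differed between siprdx1 and siNC cells, by the interaction term of edgeR's quasi-likelihood test, in 5 cases among the 9 genes. The H2O2 response differed by -0.69 for Egr1 and by -0.996 for Nr4a1 on the log2 scale, smaller in siprdx1 cells. The FV response differed by 0.85 for Egr1, 0.67 for Egr2 and 1.07 for Nr4a1, larger in siprdx1 cells. Both contrasts use the siprdx1+H2O2 and siNC+H2O2 libraries, with opposite signs, so these values are not independent of each other.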

How the results depend on the processing

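Among members, 1 was called higher after H2O2 in siprdx1 cells, and 2 were with GC and length offsets, with or without the replicate block; leaving out 1 library gave 1 to 2, with 2 without siprdx1+H2O2 replicate 1. Knockdown after H2O2 and FV raised 1 member and lowered 0, against 2 raised under limma voom, DESeq2 and both GC fits, 1 lowered under DESeq2 and in the fit of only the groups compared, and 0 to 1 raised without 1 library. Averaged over treatments, knockdown raised 0 members, and 1 with GC offsets and the block. The cause was not tested. The 5 interaction calls kept direction and call under every alternative run: -0.733 to -0.651 (Egr1) and -1.06 to -0.932 (Nr4a1) for H2O2, and 0.793 to 0.894 (Egr1), 0.615 to 0.727 (Egr2) and 0.937 to 1.13 (Nr4a1) for FV. The replicate block alone changed no call of a member, and with it Egr1 was 2.32, Egr2 0.53 and Nr4a1 1.11 after H2O2 in siNC cells.

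Values that changed sign were uncalled ones. Nr4a3 after H2O2 in siNC cells was 0.0196 (voom), 0.062 and 0.0645 (GC offsets without and with block), Nr4a2 under knockdown after H2O2 was 0.00921 (voom), Nab2 under knockdown with FV was -0.0676 and -0.067 (GC offsets without and with block), the average knockdown value was -0.013 for Egr4 and 0.000715 for Nr4a2 (voom), and Cyp11a1 with FV in siNC cells was -0.0401 (library size alone). Without 1 library, values ran after H2O2 in siNC cells from -0.293 to 0.00404 (Egr3) and -0.203 to 0.141 (Nr4a3), and in siprdx1 cells from -0.345 to 0.905 (Egr4), -0.108 to 0.0521 (Nab1), -0.012 to 0.179 (Nab2), -0.22 to 0.295 (Nr4a2) and -0.32 to 0.103 (Nr4a3). For knockdown they ran without H2O2 from -0.0133 to 0.284 (Egr3), -0.175 to 0.0167 (Nab2) and -0.376 to 0.0562 (Nr4a3), after H2O2 from -0.395 to 0.264 (Nr4a2), with FV from -0.00849 to 0.0718 (Egr1), -0.0252 to 0.0784 (Nab1) and -0.0516 to 0.0987 (Nab2), and on average from -0.126 to 0.709 (Egr4) and -0.14 to 0.0797 (Nr4a2). H2O2 interactions ran from -0.0379 to 0.12 (Nab1), -0.19 to 0.00136 (Nab2), -0.588 to 0.0707 (Nr4a2) and -0.32 to 0.112 (Nr4a3), and FV interactions from -0.159 to 0.00102 (Nab1), -0.481 to 0.178 (Nr4a2) and -0.129 to 0.212 (Nr4a3).

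Over all genes, calls numbered 1142 (646 to 2185 over the alternatives) for H2O2 in siNC, 1293 (638 to 3224) for H2O2 in siprdx1, 448 (183 to 1578) for knockdown after H2O2, 40 (24 to 264) for the H2O2 interaction and 107 (55 to 443) for the FV interaction. Library size alone as scaling moved the median of all genes by -0.10 with FV in both arms. Depth limits Egr3, Egr4, Nr4a2 and Nr4a3 outside the FV libraries.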
